A study of Mus musculus with 15 samples.

Results

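Among 15 mouse T cell leukemia lines profiled by RNA-sequencing, the 8 DKO lines split into 5 that carry *Syk* mRNA and 3 in which no *Syk* read was counted. The lines were selected on the measured *Syk* level: a DKO line with at least 20 CPM (counts per 1000000 reads assigned to genes) was called Syk-positive, and a DKO line at 0 CPM was called Syk-negative. The Syk-positive lines are DKO102.4, DKO170.2, DKO548, DKO713 and DKOTu3, and the Syk-negative lines are DKO79.9, DKO192.3 and DKO241. No label, treatment or genotype separates them, so the split is a description of the lines, the *Syk* values were not tested, and tests of other genes only say how those genes vary with the split.

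All 8 lines have the genotype E2a-/-LefF/F LckCre+ on the FVB/NJ strain, where the *LckCre* transgene deletes the floxed exons for the DNA binding domain of *Lef1* from the DN2 stage of thymocyte development onwards. Both groups therefore share the loss of E2A and the conditional loss of LEF1. Each line was grown from the thymus of a moribund mouse in OPTI-MEM with serum, was not treated, and gave 1 library. The 7 other lines, called SKO, are E2a-/- without *Cre*. Their values are set beside those of the DKO lines and entered no main comparison.

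SYK and ZAP70 are the members of 1 family of cytoplasmic tyrosine kinases that bind phosphorylated ITAM motifs of antigen receptors and Fc receptors. SYK is the main kinase of this kind in B cells and many myeloid cells, and ZAP70 in mature T cells. In the thymus SYK is known to be most abundant around the DN3 stage, where it acts beside ZAP70 downstream of the pre-TCR, and to decline after that stage.

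Reads assigned to the listed genes numbered 4847970 in DKO79.9 and between 15654332 and 21377352 in the other DKO lines. A count of 0 allows a level of up to 0.618 CPM in DKO79.9, 0.140 CPM in DKO192.3 and 0.159 CPM in DKO241, which is the worth of 3 reads in each. These limits hold for counting error alone, as no molecular identifiers are described and copies of 1 molecule may count as several reads. DKO79.9 has the fewest reads, so results were also computed without it. The p-values measure the spread between these 8 lines.

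The targeted genes come first. *Lef1* was at 173 CPM in DKO102.4, 131 in DKO170.2, 103 in DKO548, 156 in DKO713 and 103 in DKOTu3 among the Syk-positive lines, and at 210.2 CPM in DKO79.9, 125 in DKO192.3 and 121 in DKO241 among the Syk-negative lines. The groups overlapped, and all 8 DKO lines kept *Lef1* reads. A single value covers all exons of a gene, so the level cannot separate the deleted exons from the others and does not check the deletion. In the SKO lines *Lef1* ranged from 59.0 to 1558 CPM, with a median of 933 CPM, and only SKO132, at 59.0 CPM, was below the DKO lines. *Tcf3*, the gene of the E2A proteins, was at 117 to 193 CPM in Syk-positive lines, 177 to 218 CPM in Syk-negative lines and 151 to 243 CPM in SKO lines, so its reads do not check the knockout either.

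The label of a T cell line was checked against T lineage markers. All 8 genes of the list (*Cd3e*, *Cd3d*, *Cd3g*, *Thy1*, *Lck*, *Bcl11b*, *Cd2* and *Cd5*) were listed, and none was at 0 in any DKO line. Their summed level was 3590.45 CPM in DKO102.4, 4571 in DKO170.2, 3219.7 in DKO548, 2763 in DKO713 and 2802 in DKOTu3, against 4220.0 in DKO79.9, 4606 in DKO192.3 and 4121 in DKO241. The gene with the most reads in the list was *Lck* or *Thy1* in each line. *Cd2* and *Cd5*, for surface receptors of T cells, had low levels in both groups, at 3.68 to 6.51 and 3.71 to 13.5 CPM for *Cd2* and 0.230 to 8.41 and 1.65 to 10.0 CPM for *Cd5*. The CD3 chain gene *Cd3e* was at 279.9 to 564 CPM in Syk-positive and 436 to 618 CPM in Syk-negative lines, and the groups overlapped.

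In the table *Syk* lies on chromosome 13 from 52678542 to 52744161. Its level was 160.2 CPM in DKO102.4, 20.2 in DKO170.2, 181 in DKO548, 336 in DKO713 and 306 in DKOTu3, which correspond to 3278, 317, 3155, 6958 and 5815 reads. It was at 0 in DKO79.9, DKO192.3 and DKO241. The value just inside the threshold is that of DKO170.2, and no DKO line lies between it and 0. Among the Syk-positive lines DKO170.2 therefore stands apart, since the next value is 160.2 CPM. In SKO lines *Syk* ranged from 0 to 3.37 CPM, with 3.37 CPM in SKO115.2, 1.93 CPM in SKO156.6 and 0.996 CPM in SKO186.5. The other 4 SKO lines had at most 2 reads. In bulk samples, fewer cells with *Syk* mRNA and less *Syk* mRNA per cell cannot be told apart.

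**Figure D1:**
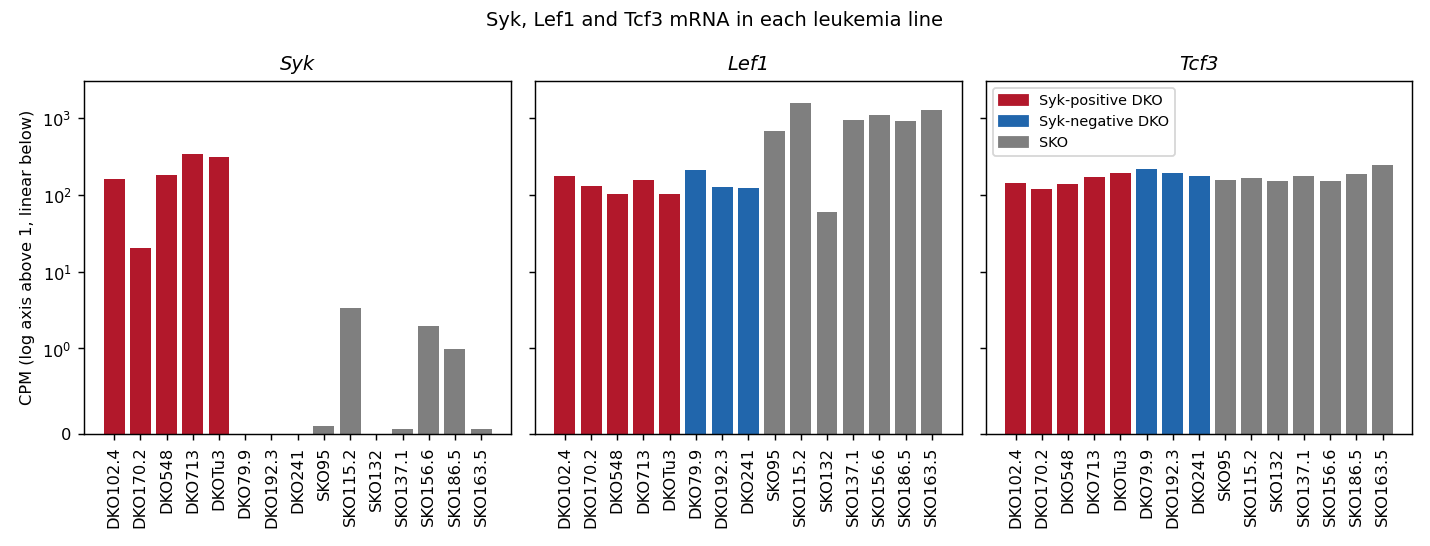
CPM of *Syk*, *Lef1* and *Tcf3* in each of the 15 lines, on an axis that is logarithmic above 1 CPM and linear below it, with Syk-positive DKO lines in red, Syk-negative DKO lines in blue and SKO lines in grey. The 5 red *Syk* bars reach 20.2 to 336 CPM and the 3 blue lines have no bar, while *Lef1* and *Tcf3* overlap between the red and the blue lines.

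*Zap70*, the other kinase of the family, was at 207 CPM in DKO102.4, 182 in DKO170.2, 184 in DKO548, 232 in DKO713 and 159.8 in DKOTu3, against 167 CPM in DKO79.9, 178 in DKO192.3 and 165 in DKO241. Its ranges overlapped, and the log2 fold change on the log2(CPM + 1) scale, Syk-positive minus Syk-negative, was 0.17 with a standard error of 0.14 (adjusted p = 0.831 from limma). It was 0.11 to 0.24 with a line left out. *Zap70* was thus read at over 100 CPM in each of the 8 DKO lines, whether *Syk* was read or not. In the SKO lines it ranged from 35.9 to 196 CPM.

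Across the table, limma on log2(CPM + 1) called 2 of 12544 genes at an adjusted p under 0.05, both higher in Syk-positive lines. These 2 genes are *Ube2q2*, which encodes a ubiquitin-conjugating enzyme, and *Ace*, which encodes the angiotensin-converting enzyme, a peptidase of the cell surface. They make 0.0159% of the genes tested for the higher direction, and 0% were called lower. At an unadjusted p under 0.05 there were 1033 genes, 377 higher (3.01%) and 656 lower (5.23%). Fold changes on this scale understate the change of genes with low CPM. Count tests were run on whole reads recovered from the CPM values, where edgeR's quasi-likelihood test called only *Ube2q2*. In edgeR's likelihood ratio test 83 genes were higher (0.662%) and 44 lower (0.351%), and DESeq2 called 161 higher (1.28%) and 83 lower (0.662%). *Ube2q2* and *Ace* passed in the likelihood ratio test and in DESeq2 too, and 114 genes were called by both of those tests.

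*Ube2q2* was at 39.1 CPM in DKO102.4, 36.9 in DKO170.2, 29.0 in DKO548, 27.2 in DKO713 and 35.1 in DKOTu3 in the Syk-positive lines, and at 0.412 CPM in DKO79.9, 0.701 in DKO192.3 and 0.159 in DKO241 in the Syk-negative lines. Every Syk-positive line, including DKO170.2 with its low *Syk* level, was far above every Syk-negative line. The means were 33.5 ± 5.15 CPM (SD, n = 5 lines) and 0.424 ± 0.271 CPM (SD, n = 3 lines), and the log2 fold change was 4.60 with a standard error of 0.24 (adjusted p = 0.000395 from limma). The rise passed the threshold with each of the 8 DKO lines left out in turn. With all 15 lines in 1 fit it did not (adjusted p = 0.205), and the adjusted p of the log2 fold change of Ube2q2 ranged from 2.56e-46 to 0.205 over the alternatives. SKO lines, which had at most 3.37 CPM of *Syk*, covered 0.0922 to 36.2 CPM of *Ube2q2*, so the gene was also read at such levels where *Syk* was low. The table lists *Ube2q2* on chromosome 9 from 54996661 to 55055336.

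*Ace* was at 24.1 CPM in DKO102.4, 8.36 in DKO170.2, 25.2 in DKO548, 30.4 in DKO713 and 34.3 in DKOTu3, against 0.206 CPM in DKO79.9, 0 in DKO192.3 and 0 in DKO241, where the value in DKO79.9 is below the worth of 3 reads. No line of either group reached into the other. The log2 fold change was 4.45 with a standard error of 0.43 (adjusted p = 0.0314 from limma), with means of 24.5 ± 9.89 CPM (SD, n = 5) and 0.0687 ± 0.119 CPM (SD, n = 3). This call depended on the lines included. Without DKO170.2 the adjusted p was 0.00108, and without any 1 of the other lines *Ace* missed the threshold. The adjusted p was then 0.0883 without DKO79.9, 0.192 without DKO102.4, 0.116 without DKO192.3, 0.0962 without DKO241, 0.0854 without DKO548, 0.148 without DKO713 and 0.109 without DKOTu3. The adjusted p of the log2 fold change of Ace ranged from 3.40e-16 to 0.274 over all alternatives. SKO lines covered 0 to 103 CPM. The table lists *Ace* on chromosome 11 from 105829259 to 105851278.

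Without DKO79.9, limma called 2 genes, of which *Ube2q2* was 1 of the 2 called with it. The other was *Trbv20*, a V gene of the T cell receptor beta chain, a gene picked out once its values were known. It was at 122 CPM in DKO192.3 and 293 CPM in DKO241, and at most 0.683 CPM in the Syk-positive lines, but DKO79.9 also had 0 CPM. V genes are rearranged separately in each clone of T cells. Leaving out DKO170.2 raised the count from 2 to 30 genes (23 higher and 7 lower), while it was 1 without DKO102.4, DKO713 or DKOTu3 and 3 without DKO192.3, DKO241 or DKO548.

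A wider description compares ranges instead of means. There were 755 genes whose values do not overlap between Syk-positive and Syk-negative DKO lines, 278 higher in every Syk-positive line (2.22%) and 477 lower in every Syk-positive line (3.80%). The balance between the directions moved with the scaling of the libraries: 392 were higher and 359 lower with TMM factors, 326 and 406 with upper-quartile factors, and 373 and 384 with median-of-ratios factors. The median log2 fold change of all genes was -0.05 with the values as deposited. Of the 755 genes, 229 higher and 370 lower had a mean of at least 5 CPM in the higher group. Without DKO79.9 the count was 470 higher (3.75%) and 800 lower (6.38%). With a Syk-negative line left out it was 1572 genes without DKO192.3 and 1466 without DKO241. With a Syk-positive line left out it was 1691 without DKO170.2, but 891 without DKO102.4, 993 without DKO548, 1040 without DKO713 and 940 without DKOTu3. These 5 counts all compare 4 with 3 lines.

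For a closer view, 12 genes of each direction were taken by a fixed order, starting with genes that passed limma and filled up by unadjusted p among genes without overlap and with at least 5 CPM. Beside *Ube2q2* and *Ace*, the 10 others higher in Syk-positive lines had adjusted p values up to 0.219 and did not pass with all 8 lines. The call turned on DKO170.2 in most of them: without this line 7 of the 10 passed limma, *Tnfrsf19* (adjusted p = 0.00237), *Sh3rf3* (0.00332), *Ntng2* (0.00700), *Tceal8* (0.00720), *Nkd1* (0.00974), *Pkdcc* (0.0148) and *Rag2* (0.0153). The same 7 and *Pkp4* passed with array weights, and *Slc43a1* passed without DKO192.3. Their order follows from their values, so the following describes them and adds no support to the split.

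*Nkd1* encodes a Dishevelled-binding inhibitor of Wnt signalling that is itself a common target of the pathway. It was at 78.4 CPM in DKO102.4, 22.5 in DKO170.2, 72.4 in DKO548, 66.5 in DKO713 and 198 in DKOTu3, against 1.24 CPM in DKO79.9, 0.234 in DKO192.3 and 2.71 in DKO241. DKOTu3 was highest and DKO170.2 lowest of the Syk-positive lines, and both were above all Syk-negative lines (log2 fold change 5.04, standard error 0.64, adjusted p = 0.0805 from limma). No SKO line exceeded 14.5 CPM, so each Syk-positive DKO line was also above each SKO line.

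*Rag2* encodes a subunit of the recombinase that joins antigen receptor gene segments in DN and DP thymocytes. Its values were 35.0 CPM in DKO102.4, 21.4 in DKO170.2, 94.7 in DKO548, 46.2 in DKO713 and 68.8 in DKOTu3, against 4.95 CPM in DKO79.9, 2.52 in DKO192.3 and 2.50 in DKO241. The lowest Syk-positive value was that of DKO170.2 and the groups did not overlap (log2 fold change 3.52, standard error 0.47, adjusted p = 0.0834 from limma). The table's positions for *Rag2* overlap those of B230118H07Rik, so part of the reads of either gene may belong to the other. SKO lines covered 0.165 to 51.6 CPM.

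*Ntng2* encodes a membrane-anchored netrin known from neurons. It was at 24.1 CPM in DKO102.4, 9.32 in DKO170.2, 31.7 in DKO548, 44.4 in DKO713 and 29.1 in DKOTu3, against 1.65 CPM in DKO79.9, 0.374 in DKO192.3 and 0.159 in DKO241, and its positions overlap those of 6530402F18Rik. *Pkdcc*, for a secreted tyrosine kinase, was at 47.4 CPM in DKO102.4, 13.1 in DKO170.2, 89.5 in DKO548, 126 in DKO713 and 58.9 in DKOTu3 and at 0.0467 to 2.92 CPM in the Syk-negative lines, and SKO lines had at most 8.11 CPM. *Tnfrsf19*, for a receptor of the TNF receptor family, was at 40.2 CPM in DKO102.4, 5.36 in DKO170.2, 70.1 in DKO548, 39.9 in DKO713 and 45.7 in DKOTu3, against 0.412 to 1.43 CPM. In each of these 3 genes the value of DKO170.2 was the lowest of the Syk-positive lines.

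*Sh3rf3*, for a RING-type ubiquitin ligase with SH3 domains, was at 3.96 to 61.5 CPM in Syk-positive lines and 0 to 0.212 CPM in Syk-negative lines. *Tceal8*, on the X chromosome, was at 5.30 to 32.1 CPM, against 0 to 0.690 CPM. *Slc43a1*, for a transporter of large neutral amino acids, was at 28.4 to 101 CPM, against 0.412 to 7.20 CPM, where the highest Syk-negative value was in DKO192.3. The zinc finger factor gene *Klf6* was likewise highest in DKO192.3 among Syk-negative lines, with 14.4 to 74.0 CPM against 0.0531 to 5.70 CPM. *Pkp4*, for an armadillo protein of cell junctions, was clearly read in both groups, at 47.7 to 82.7 and 13.8 to 29.3 CPM, and had the smallest fold change of the 12 (1.65, standard error 0.26). Among the 12 genes DKO170.2 was the lowest Syk-positive line in 11, all but *Ube2q2*, where DKO713 was lowest. edgeR's likelihood ratio test called 11 of the 12, all but *Klf6*, and DESeq2 called all 12.

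In the lower direction none of the 12 genes passed limma with all 8 lines, with adjusted p values of 0.0805 to 0.262, while each had an unadjusted p under 0.05. Without DKO170.2 *Fam107b* and *Jup* passed (both at an adjusted p of 0.0243), and these and *Tro* passed with array weights. *Fam107b* headed them, at 237 CPM in DKO102.4, 249 in DKO170.2, 221 in DKO548, 205 in DKO713 and 229.6 in DKOTu3, against 551 CPM in DKO79.9, 406 in DKO192.3 and 478 in DKO241. The groups did not overlap, with means of 228 ± 16.4 CPM (SD, n = 5 lines) and 478 ± 72.8 CPM (SD, n = 3 lines). The log2 fold change was -1.06 with a standard error of 0.13 (adjusted p = 0.0805 from limma). SKO lines covered 173 to 729.5 CPM, across both groups.

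*Jup* encodes plakoglobin, a junction protein related to beta-catenin. It was at 0.0489 CPM in DKO102.4, 0.8935 in DKO170.2, 0.0575 in DKO548, 0.0966 in DKO713 and 0.158 in DKOTu3, against 3.30 CPM in DKO79.9, 5.33 in DKO192.3 and 8.39 in DKO241, so 4 of the Syk-positive lines had no more than the worth of 3 reads and DKO170.2 had more (log2 fold change -2.38, standard error 0.32, adjusted p = 0.0834 from limma). *Tro*, for the adhesion-associated protein trophinin, was at 0.0978 CPM in DKO102.4, 0 in DKO170.2, 1.32 in DKO548, 0.580 in DKO713 and 0.999 in DKOTu3, against 5.15 CPM in DKO79.9, 15.9 in DKO192.3 and 14.6 in DKO241. *Plekha7*, whose product sits at adherens junctions, was at 21.3 CPM in DKO102.4, 51.1 in DKO170.2, 42.3 in DKO548, 23.6 in DKO713 and 53.8 in DKOTu3, against 128 CPM in DKO79.9, 121 in DKO192.3 and 104 in DKO241. Each Syk-negative line was above each Syk-positive line in all 3 genes, and in SKO lines they covered 0.0922 to 20.5, 0.0461 to 15.4 and 2.31 to 94.1 CPM.

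The other genes of the lower direction had fold changes closer to 0 than those 3. *Padi2*, for an enzyme that converts arginine to citrulline in proteins, was at 4.85 to 8.11 CPM in Syk-positive and 15.2 to 22.4 CPM in Syk-negative lines. *Greb1* was at 14.3 to 31.4 and 52.1 to 65.3 CPM, and *Dlg4*, for a scaffold protein, at 27.3 to 41.2 and 57.3 to 74.1 CPM. *Cux1*, for a homeobox factor, was at 224 to 309 and 386 to 529.7 CPM, and its positions overlap those of another listed gene, so reads may be shared. *Lasp1*, whose product binds actin, was at 111 to 136 and 171 to 204 CPM. The same limit holds for 3 further genes: *Evi2* with *Nf1* and *Evi2a*, *Nt5c2*, for a nucleotidase, with *Ina*, and *Asap2*, for a GTPase-activating protein of ARF, with *Itgb1bp1*. Their ranges were 23.4 to 36.8 and 49.5 to 90.0 CPM, 59.5 to 77.1 and 97.4 to 128 CPM, and 9.96 to 22.9 and 32.6 to 45.1 CPM. The highest Syk-positive value was in DKOTu3 in 5 of the 12 genes, and in DKO170.2 and DKO548 in 3 each. The likelihood ratio test called 10 of the 12 and DESeq2 all 12.

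**Figure D2:**
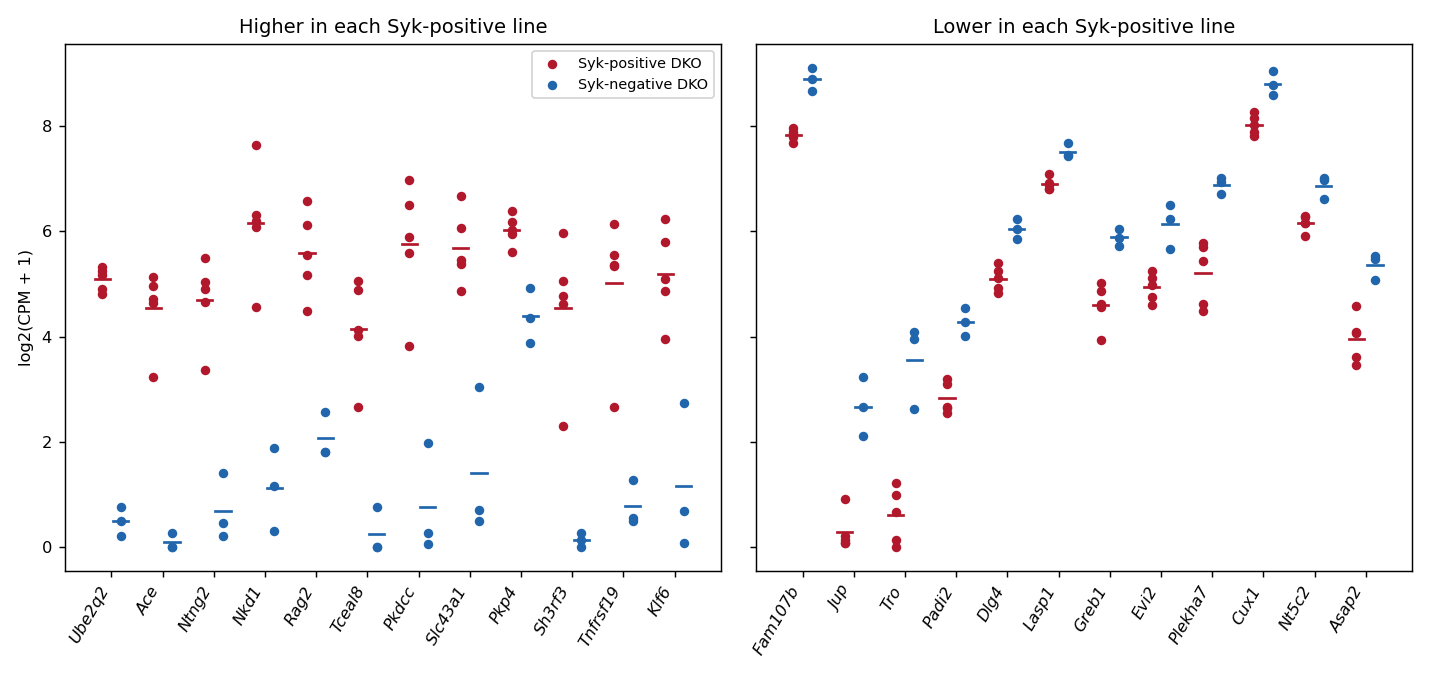
log2(CPM + 1) of the 12 named genes of each direction in the 5 Syk-positive lines (red points) and the 3 Syk-negative lines (blue points), with a bar at the mean of each group. *Ube2q2* has the closest red points of the left panel, at 27.2 to 39.1 CPM, and only *Ube2q2* and *Ace* passed limma.

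The proximal T cell receptor pathway was read through 34 of the 35 genes of a list, all but *Ubash3b*. None passed limma, 0 were higher and 3 lower in every Syk-positive line, and the median log2 fold change was -0.26, against -0.05 over all genes. At an unadjusted p under 0.05 limma gave 0 higher and 5 lower, and the likelihood ratio test called 0 and DESeq2 0. With TMM factors only 1 of the 3, *Cd6*, stayed without overlap. Over all 12544 genes 2.22% were higher and 3.80% lower without overlap as deposited, and 392 and 359 genes were with TMM factors. *Cd6*, a coreceptor of T cells, was at 7.04 CPM in DKO102.4, 6.25 in DKO170.2, 0.115 in DKO548, 5.31 in DKO713 and 1.26 in DKOTu3, against 14.2 CPM in DKO79.9, 17.2 in DKO192.3 and 62.8 in DKO241. The kinase gene *Tec* was at 3.43 to 8.81 CPM, against 8.83 to 42.2 CPM, with DKO170.2 and DKOTu3 just below DKO192.3. The adaptor gene *Nck1* was at 36.7 to 48.8 and 49.9 to 55.8 CPM. *Lck*, the kinase that phosphorylates ITAM motifs before SYK or ZAP70 binds, was at 873 CPM in DKO102.4, 928 in DKO170.2, 539 in DKO548, 652 in DKO713 and 597 in DKOTu3, against 1261 CPM in DKO79.9, 847 in DKO192.3 and 972 in DKO241, and the groups overlapped (log2 fold change -0.53, adjusted p = 0.604 from limma).

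Receptors, adaptors and substrates through which SYK acts in B and myeloid cells were listed for 17 of 30 genes. *Cd79a*, *Cd79b*, *Fcer1g*, *Tyrobp*, *Hcst*, *Lyn* and *Btk* were among the 13 not listed in the table. None of the 17 passed limma, 0 were higher and 3 lower in every Syk-positive line (2 lower with TMM factors, and 1 higher and 3 lower without DKO79.9), and the median log2 fold change was -0.61 (-0.49 without DKO79.9). Unadjusted p values under 0.05 were found for 0 higher and 4 lower genes, and both the likelihood ratio test and DESeq2 called 0. Over all 12544 genes 2.22% were higher and 3.80% lower without overlap as deposited, and 392 and 359 genes were with TMM factors. *Sh3bp2*, for an adaptor that binds SYK family kinases, was at 5.06 to 11.1 CPM, against 12.4 to 14.1 CPM. *Prkcd*, for protein kinase C delta, was at 62.0 to 66.4 CPM, against 66.8 to 98.1 CPM, and overlapped with TMM factors.

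Of the Ras, diacylglycerol and calcium arm, 25 of 26 genes were listed, 0 passed limma and 0 were without overlap in either direction (1 higher without DKO79.9), with a median of -0.13. Limma gave 2 higher and 2 lower at an unadjusted p under 0.05, and the likelihood ratio test and DESeq2 each called 0. *Rasgrp1*, for a Ras activator of thymocytes, was at 1028 CPM in DKO102.4, 144 in DKO170.2, 429 in DKO548, 991 in DKO713 and 453 in DKOTu3, against 266 CPM in DKO79.9, 239.6 in DKO192.3 and 328 in DKO241, so 4 Syk-positive lines were above and DKO170.2 below the Syk-negative lines. *Prkch*, for protein kinase C eta, was at 100.2 to 195 and 155 to 234 CPM and overlapped.

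Genes that respond to antigen receptor signals were listed for 25 of 30. None passed limma, 1 was higher and 1 lower without overlap (4 and 1 without DKO79.9), and the median was 0.01 (0.24 without DKO79.9). Without adjustment 2 higher and 2 lower genes had p under 0.05, the likelihood ratio test called 0 and DESeq2 called 2. *Jun* was the higher one, at 19.8 CPM in DKO102.4, 4.98 in DKO170.2, 9.60 in DKO548, 28.6 in DKO713 and 84.2 in DKOTu3, against 4.95 CPM in DKO79.9, 4.02 in DKO192.3 and 0.584 in DKO241. DKO170.2 was above DKO79.9 by less than the worth of 1 read in either line. *Tnfaip3*, for the NF-kB inhibitor A20, was the lower one, at 32.3 to 47.2 CPM, against 49.2 to 58.3 CPM, and overlapped with TMM factors. *Irf4*, named after its values were seen because DESeq2 called it, was at 416 CPM in DKO102.4, 11.9 in DKO170.2, 89.4 in DKO548, 304 in DKO713 and 174 in DKOTu3, against 36.9 CPM in DKO79.9, 7.10 in DKO192.3 and 9.88 in DKO241, where DKO170.2 again fell inside the Syk-negative range.

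Stage markers of thymocyte development were taken in order. Of the early progenitor and DN2 list 9 of 23 genes were listed, 0 passed limma and 0 were without overlap (median 0.06). Without adjustment 1 higher and 1 lower gene had p under 0.05, and the likelihood ratio test and DESeq2 each called 1. *Il7r*, the interleukin 7 receptor chain gene, is named after its values were seen because the likelihood ratio test and DESeq2 called it. It was at 197 CPM in DKO102.4, 14.7 in DKO170.2, 253 in DKO548, 216 in DKO713 and 262 in DKOTu3, against 4.53 CPM in DKO79.9, 0.841 in DKO192.3 and 23.8 in DKO241. The other 4 Syk-positive lines were far above the Syk-negative lines, and DKO170.2 lay below DKO241. The lower gene was *Kit*, for a receptor of early progenitors, also named after its values were seen. It was at 0.293 CPM in DKO102.4, 35.1 in DKO170.2, 0.115 in DKO548, 0.193 in DKO713 and 18.5 in DKOTu3, against 173 CPM in DKO79.9, 69.6 in DKO192.3 and 30.6 in DKO241, and the groups overlapped through DKO170.2.

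The DN3 and pre-TCR list had 19 of 20 genes in the table, 0 past limma, and 1 higher (*Rag2*) and 1 lower (*Bcl11b*) without overlap (1 and 3 without DKO79.9; median -0.31). Here 2 higher and 4 lower genes had an unadjusted p under 0.05, the likelihood ratio test called 1 and DESeq2 called 2. The 2 higher were *Rag2* and *Rag1*, and the 4 lower *Bcl11b*, *Dtx1*, *Cd24a* and *Heyl*. *Rag1*, *Dtx1*, *Cd24a* and *Heyl* were named after their values were seen. *Rag1* was at 274 to 2228 and 228 to 648 CPM and overlapped. *Dtx1* (-1.45), *Cd24a* (-1.09) and *Heyl* (-1.18) overlapped too, with log2 fold changes in parentheses. *Bcl11b*, for a factor of T lineage commitment, was at 331 CPM in DKO102.4, 262 in DKO170.2, 265 in DKO548, 267 in DKO713 and 381 in DKOTu3, against 458 CPM in DKO79.9, 494 in DKO192.3 and 406 in DKO241. *Ptcra*, the pre-TCR alpha chain gene, was at 30.7 to 87.6 and 12.8 to 89.7 CPM, with its lowest value in DKO79.9. Its log2 fold change was 0.25, but -0.64 without DKO79.9, and negative in the count tests and with array weights. *Il2ra*, which encodes the DN2 and DN3 marker CD25, was at 1636 CPM in DKO102.4, 70.1 in DKO170.2, 1484 in DKO548, 381 in DKO713 and 1372 in DKOTu3, against 291 CPM in DKO79.9, 12.4 in DKO192.3 and 152 in DKO241. The log2 fold change was 2.88, its standard error 1.29, and limma gave an adjusted p of 0.622. With a line left out the log2 fold change ran from 1.55 (without DKO192.3) to 3.78 (without DKO79.9). The 4 Syk-positive lines with over 100 CPM of *Syk* were above all Syk-negative lines and DKO170.2 was within them. *Notch1* was at 830.1 to 1519 and 1231 to 2199.5 CPM and overlapped, and its positions overlap those of 0610009E02Rik.

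Of the DP and mature T cell list all 27 genes were listed, 0 passed limma, and 1 was higher (*Cd8b1*) and 1 lower (*Tox*) without overlap (2 and 1 without DKO79.9; median -0.20). In this list 1 higher and 3 lower genes had an unadjusted p under 0.05, and the likelihood ratio test and DESeq2 each called 1, *Cd8b1*. *Cd8b1*, the CD8 beta chain gene, was at 80.8 CPM in DKO102.4, 20.1 in DKO170.2, 19.1 in DKO548, 10.2 in DKO713 and 103 in DKOTu3, against 4.95 CPM in DKO79.9, 1.87 in DKO192.3 and 5.52 in DKO241. *Cd8a*, its partner chain, was at 272 CPM in DKO102.4, 35.8 in DKO170.2, 72.0 in DKO548, 8.26 in DKO713 and 299 in DKOTu3, against 3.30 CPM in DKO79.9, 61.3 in DKO192.3 and 54.3 in DKO241, and overlapped. The chains did not follow the split alike, as DKO170.2 and DKO713 had less *Cd8a* than DKO192.3 and DKO241. *Cd4* was at 4.31 to 21.8 and 0.412 to 36.3 CPM. Its log2 fold change was 0.62, but -0.50 without DKO79.9 and negative in the count tests. *Tox*, for a factor of thymocyte selection, was at 24.6 to 57.5 CPM, against 76.5 to 84.7 CPM. *Ikzf1* was at 2.98 CPM in DKO102.4, 0.128 in DKO170.2, 280.5 in DKO548, 589 in DKO713 and 648 in DKOTu3, against 325 CPM in DKO79.9, 80.6 in DKO192.3 and 1257 in DKO241, so the 2 lines with almost none were Syk-positive while the other 3 overlapped the Syk-negative lines.

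The gamma-delta list had 12 of 18 genes in the table, 0 past limma, 0 higher and 1 lower without overlap (median -0.10), with 0 higher and 1 lower at an unadjusted p under 0.05 and 0 calls by the likelihood ratio test and DESeq2. The lower one was *Sox4*, at 238 to 307 CPM, against 333 to 406 CPM, which overlaps another listed gene in position. All 20 cell cycle genes were listed, of which 0 passed limma and 0 were without overlap (1 higher and 1 lower without DKO79.9; median -0.07), with 0 higher and 1 lower at an unadjusted p under 0.05 and again 0 calls by the other tests. Over all genes 2.22% were higher and 3.80% lower without overlap, and the counts of 0 to 3 genes per list are to be read against these shares, and those without DKO79.9 against 3.75% and 6.38%. The counts at an unadjusted p under 0.05 are to be read against 3.01% higher and 5.23% lower over all genes. For calls by the likelihood ratio test the shares are 0.662% higher and 0.351% lower, and for DESeq2 1.28% and 0.662%. Counts with TMM factors are to be read against 392 higher and 359 lower of 12544 genes. No list was tested as a set.

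TCF and LEF factors and Wnt targets were listed for 18 of 23 genes, with 0 past limma and *Nkd1* alone without overlap (median 0.16). Without DKO79.9, 3 were higher and 0 lower without overlap, and the median was 0.10. *Nkd1* and 1 lower gene had an unadjusted p under 0.05, and the likelihood ratio test and DESeq2 each called *Nkd1*. *Tcf7*, for the related factor TCF1, was at 3133 CPM in DKO102.4, 2217 in DKO170.2, 2421 in DKO548, 2572 in DKO713 and 2791 in DKOTu3, against 3228 CPM in DKO79.9, 2913 in DKO192.3 and 3624 in DKO241, and overlapped. Its positions in the table overlap those of A630014C17Rik and of another listed gene. *Axin2*, a general Wnt target, was at 259 CPM in DKO102.4, 229 in DKO170.2, 104 in DKO548, 196 in DKO713 and 237 in DKOTu3, against 76.9 CPM in DKO79.9, 236 in DKO192.3 and 147 in DKO241. The high *Nkd1* of the Syk-positive lines thus did not go with a like split of *Axin2*, for which DKO192.3 was among the higher lines and DKO548 among the lower.

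A last list holds *Fabp5*, *Pla2g12a*, *Hoxa13*, *Axin2*, *Cdkn1a*, *Prkch* and *Rasgrp1*, genes that the study names beside *Syk*. They were chosen by the study on these samples, so their directions are no independent evidence. All 7 were listed, 0 passed limma and 0 were without overlap between the Syk groups (1 lower without DKO79.9). Their median log2 fold change was 0.49, and 0.07 without DKO79.9. Of the 7, 1 higher and 1 lower had an unadjusted p under 0.05, and the likelihood ratio test and DESeq2 called 0. *Fabp5*, for a fatty acid binding protein, was at 168 to 530.3 and 83.2 to 285 CPM. *Pla2g12a*, for a secreted phospholipase, was at 36.5 to 85.5 and 17.1 to 46.4 CPM. *Hoxa13* was at 0 to 3.45 and 2.47 to 12.7 CPM. *Cdkn1a*, for the cell cycle inhibitor p21, was at 58.5 to 201 and 74.7 to 166 CPM with a log2 fold change near 0.

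Markers of other cell types were read in the same lines. Of the B lineage list 5 of 12 genes were listed, *Cd79a*, *Cd79b*, *Pax5*, *Ebf1* and *Ms4a1* not among them. The summed level was 39.0 to 106 CPM in Syk-positive and 39.2 to 159 CPM in Syk-negative lines, most of it *Ighm*. *Igll1*, for a surrogate light chain, was at 0.293 to 1.96 CPM, against 0 to 0.106 CPM, all low levels. The myeloid list had 3 of 13 genes in the table, *Csf1r*, *Mpo* and *Cd14* not among them, with sums of 11.8 to 18.9 and 10.6 to 15.7 CPM. *Itgam* had the highest level in 7 lines and *Cd68* in DKO170.2, and *Lyz2* was at 0 in DKO102.4, DKO548 and DKO713. The summed B and myeloid markers overlapped between the groups, and whether such cells contributed *Syk* reads was not tested.

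The NK and innate lymphoid list had 8 of 15 genes in the table, without *Ncr1*, *Eomes* and *Klrd1*, and sums of 171 to 834 CPM in Syk-positive and 428 to 1447 CPM in Syk-negative lines. Most of this was *Gzma*, and *Prf1* was at 0 in DKO548, DKOTu3 and DKO79.9. The erythroid and megakaryocyte list had 2 of 11 genes in the table, and its sum was highest in DKO79.9, at 42.0 CPM, through *Gata1*.

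The summed stroma and endothelium list did not overlap between the groups. Of its 9 genes 5 were listed, *Col1a1*, *Col3a1*, *Cdh5* and *Krt8* not among them. Its summed level was 465 CPM in DKO102.4, 433 in DKO170.2, 336 in DKO548, 482 in DKO713 and 147 in DKOTu3, against 958 in DKO79.9, 1195 in DKO192.3 and 769.7 in DKO241. The most abundant gene was *Col1a2*, or *Pdgfrb* in DKO713 and DKOTu3, and the 2 did not vary alike. *Pdgfrb*, a growth factor receptor gene, was at 66.0 CPM in DKO102.4, 117 in DKO170.2, 60.9 in DKO548, 214 in DKO713 and 89.6 in DKOTu3, against 411 CPM in DKO79.9, 166 in DKO192.3 and 1.91 in DKO241. It overlapped between the groups, and DKO241 was below every Syk-positive line. *Col1a2*, a collagen chain gene, was at 315 CPM in DKO102.4, 269 in DKO170.2, 218 in DKO548, 195 in DKO713 and 0 in DKOTu3, against 414 CPM in DKO79.9, 947 in DKO192.3 and 673 in DKO241. Its log2 fold change was -2.97, the standard error 1.81, and limma gave an adjusted p of 0.750. Without DKOTu3, whose value is 0, the log2 fold change was -1.38. *Pecam1*, for an adhesion protein of endothelium, was at 44.9 to 84.4 and 75.2 to 129 CPM and overlapped. Its log2 fold change was -0.65, with an unadjusted p of 0.0270 and an adjusted p of 0.543 by limma. *Krt18* was at 0 in all DKO lines but DKOTu3 and DKO192.3, and *Epcam* was at 0 in DKO102.4, DKO548, DKO713 and DKO241. Whether other cells had a part in any of the results was not tested.

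The genes on both sides of *Syk* were read next. Within 1000000 bases by the table's own positions there were 9 listed genes, of which 3 were higher and 1 lower in every Syk-positive line, as deposited and with TMM factors, and 0 passed limma. Unadjusted p values under 0.05 were found for 3 higher and 1 lower, and the likelihood ratio test called 1 and DESeq2 3. Over all genes the likelihood ratio test called 0.662% higher and 0.351% lower, and DESeq2 1.28% and 0.662%. With TMM factors 392 of all 12544 genes were higher and 359 lower without overlap. *Diras2*, for a small GTPase, is the nearest, 52337 bases away, and was at 1.22 CPM in DKO102.4, 0.128 in DKO170.2, 0.518 in DKO548, 0.725 in DKO713 and 10.6 in DKOTu3, against 0 CPM in DKO79.9, 0.0935 in DKO192.3 and 0 in DKO241. In DKO170.2 its value is below the worth of 3 reads, so it cannot be told apart from 0 there. Its log2 fold change of 1.21 fell to 0.64 without DKOTu3. *Gadd45g*, for a stress-induced growth arrest protein, was at 27.2 CPM in DKO102.4, 4.60 in DKO170.2, 1.67 in DKO548, 31.1 in DKO713 and 26.5 in DKOTu3, against 0.206 CPM in DKO79.9, 0.0935 in DKO192.3 and 0.265 in DKO241. The DKO548 value of 1.67 CPM shows that a high *Syk* level did not go with a high *Gadd45g* level in each line (log2 fold change 3.45, standard error 0.85, adjusted p = 0.362 from limma).

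*Auh*, for an enzyme of leucine breakdown, had small spread, at 44.8 CPM in DKO102.4, 41.2 in DKO170.2, 44.0 in DKO548, 46.4 in DKO713 and 39.0 in DKOTu3, against 27.6 CPM in DKO79.9, 26.8 in DKO192.3 and 34.2 in DKO241. Its log2 fold change was 0.53, with an adjusted p of 0.381 by limma. *Sema4d*, for a semaphorin of lymphocytes, was the lower one, at 78.7 CPM in DKO102.4, 76.7 in DKO170.2, 96.3 in DKO548, 123 in DKO713 and 107 in DKOTu3, against 171 in DKO79.9, 164.1 in DKO192.3 and 135 in DKO241. The 5 others overlapped: *Cks2* (-0.01), *Secisbp2* (-0.01), *Nfil3* (1.41), *Ror2* (0.64) and *Sptlc1* (0.01), with log2 fold changes in parentheses. *Ror2* was read at 10.6 CPM in DKOTu3 and at no more than 0.106 CPM in the other DKO lines.

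Within 5000000 bases there were 64 listed genes, 5 higher and 1 lower without overlap, with a median log2 fold change of 0.00. On the whole of chromosome 13 the counts were 20 higher and 14 lower of 486. Without DKO79.9 they were 25 and 24, to be read against 3.75% and 6.38% over all genes. Over all listed genes 2.22% were higher and 3.80% lower without overlap, and 3.01% and 5.23% had an unadjusted p under 0.05 in these directions, against which the counts near *Syk* and on the chromosome are to be read. The median deviation of chromosome 13 genes from the gene's median over the DKO lines, minus that of autosomal genes, was between -0.05 and 0.06 on the log2 scale in 7 lines and -0.11 in DKO170.2. No Syk-positive line thus stood more than 0.06 above its autosomal genes on chromosome 13 as a whole.

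**Figure D3:**
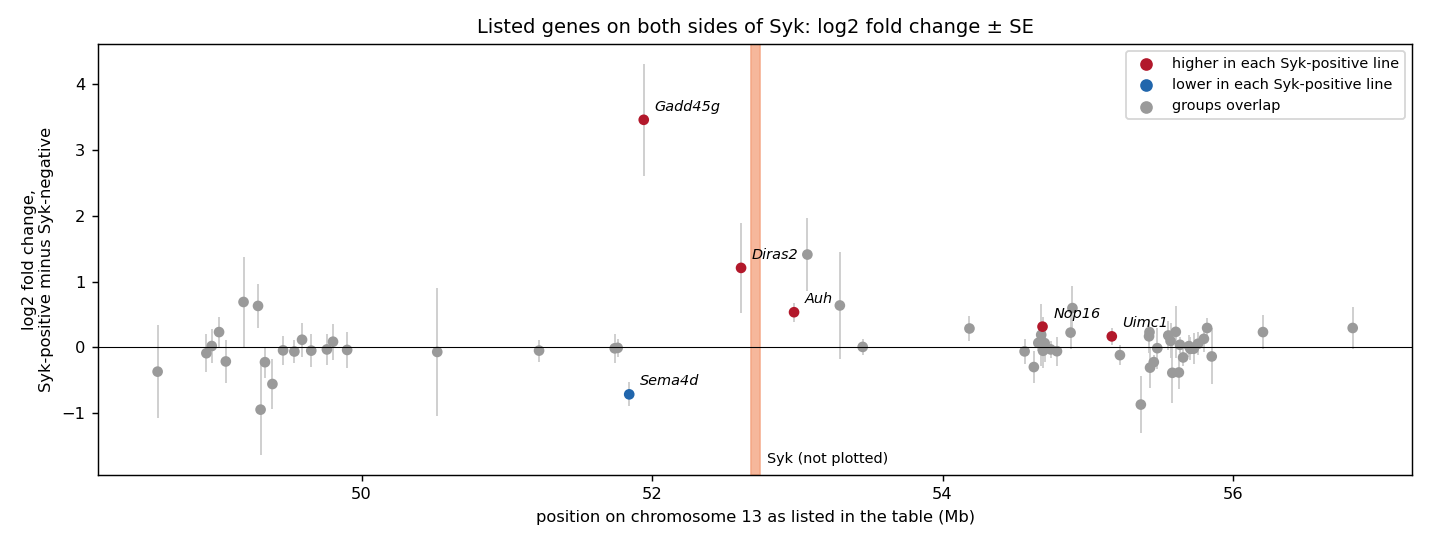
log2 fold change, Syk-positive minus Syk-negative, with its standard error (bars), of listed genes within 5000000 bases of *Syk* (orange band, not plotted) against their position on chromosome 13 as listed in the table. Of genes whose groups do not overlap, *Gadd45g* stands at 3.45, *Diras2* at 1.21 and *Sema4d* at -0.71. Among genes whose groups overlap, *Nfil3* is at 1.41, *Nsd1* at -0.87 and *Card19* at -0.94.

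To show the sequence next to the start of the gene whose mRNA splits the lines, the 250 bases before each annotated *Syk* start were taken from RefSeq on GRCm38.p6, whose coordinates differ from those of the table. They lie on the + strand at chr13:52583187-52583436 and chr13:52596632-52596881. Both were searched for CTTTGA and CTTTGT, the core letters bound by TCF and LEF factors, on both strands (TCAAAG and ACAAAG). The downstream window holds 1 match, in capitals, 7 bases before the start, and the upstream window none. Of 32851 such windows of the genome 27.62% hold a match, so a match is a description of these letters and shows no binding.
Syk upstream start: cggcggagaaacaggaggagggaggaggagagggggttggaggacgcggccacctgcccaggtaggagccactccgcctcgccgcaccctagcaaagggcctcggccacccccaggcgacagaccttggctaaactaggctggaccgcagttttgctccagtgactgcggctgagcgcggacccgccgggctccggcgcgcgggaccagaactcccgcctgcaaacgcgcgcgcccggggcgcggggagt
Syk downstream start: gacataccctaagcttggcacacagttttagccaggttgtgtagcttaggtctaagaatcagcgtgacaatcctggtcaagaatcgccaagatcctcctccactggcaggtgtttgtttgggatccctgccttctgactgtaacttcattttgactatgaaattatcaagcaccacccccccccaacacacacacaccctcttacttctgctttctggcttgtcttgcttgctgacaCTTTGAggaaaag
Of the other genes named above, *Ace* and *Ube2q2* each hold a match in 1 of 2 windows, and *Nkd1*, *Rag2* and *Gadd45g* hold none in their 1 window.

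The lines were also compared over all genes together. Pearson's r of log2(CPM + 1) across the listed genes other than *Syk*, which are not independent replicates, was 0.8995 to 0.956 over the 10 pairs of Syk-positive lines (median 0.940), 0.924 to 0.955 over the 3 pairs of Syk-negative lines (median 0.938) and 0.885 to 0.948 over the 15 pairs between them (median 0.927). DKO170.2 was closest to the Syk-negative line DKO192.3 (0.948), and next to DKO102.4 (0.942). The first principal component of the 8 lines held 31.3% of the variance, with scores of 53.4 in DKO548, 48.2 in DKO713, 26.2 in DKOTu3, 13.9 in DKO102.4, -11.3 in DKO241, -27.1 in DKO192.3, -42.6 in DKO170.2 and -60.5 in DKO79.9. DKO170.2, the Syk-positive line with the least *Syk*, thus lay among the Syk-negative lines on this component, and the other 4 lay on the opposite side.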

How the data were processed

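RNA-sequencing of 15 leukemia lines, 1 library per line, was taken from the deposited table of CPM values for 12545 genes, of which 12172 have a symbol. Per the labels' processing notes, reads were trimmed with Trimmomatic (version 0.33), aligned with TopHat2 (version 2.1.0) to mm10, counted per gene with HTSeq (version 0.6.1) and scaled by the authors to CPM with edgeR. How the listed genes were selected and whether counting used strand are not given in the sources used here. The table's positions are not those of GRCm38, which mm10 names: 190 of 12172 starts lie within 1 base of it, though the chromosome is the same for 12157. The text gives positions as listed.

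Lines were grouped by measured *Syk* (at least 20 CPM, or 0). The members and gene lists were chosen with earlier results of these data known. Genes other than *Syk* were compared with limma (version 3.58.1, R version 4.3.3) on log2(CPM + 1) with a trended variance, two-sided, Benjamini-Hochberg adjusted over 12544 genes at 0.05, with the study's 0.01 as an alternative. Other alternatives were pseudocounts of 0.1 and 2, a mean of at least 1 CPM, no trend, 3 scalings, array weights, all 15 lines, and each line left out. Whole reads (tolerance 0.01) were recovered for 100% of values and tested with edgeR (version 4.0.16; quasi-likelihood, 1 gene; likelihood ratio, 127) and DESeq2 (version 1.42.0; 244, with 410 adjusted p left as NA). The main limma fit, both edgeR tests and DESeq2 were also run on simulated counts with known changes, and the other alternatives were not. The simulated spread followed the trend over all genes and not each gene's own, so this run does not check the calls made here. Descriptions and figures used Python (version 3.11.15), numpy (version 2.4.6), pandas (version 2.3.3) and matplotlib (version 3.10.9).

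Named genes are up to 12 per direction by fold change among genes past limma without overlap and with at least 5 CPM, filled by unadjusted p, list members without overlap, 18 genes whatever their values, and listed genes within 1000000 bases of *Syk*. *Tcf3* was named as a targeted gene, and members of the cell type marker lists to describe their sums. Other genes, *Trbv20*, *Il7r*, *Kit*, *Irf4*, *Rag1*, *Dtx1*, *Cd24a*, *Heyl*, *Nsd1* and *Card19* among them, were named beyond this rule after their values were seen. The separate values of *Pdgfrb* and *Pecam1* were likewise given after they were seen.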

Additional observations from a re-analysis of the deposited data

Results flagged for a closer look

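In each group of values the line farthest from the others was compared with the spread of its group, and 9 of 67 groups had a line that stood apart. Chance gives this in about 1 in 20 groups, but the 2 shares cannot be compared, because *Syk* chose the lines and many of the genes were named for how they separate them. DKO170.2 was that line in 4 groups, DKO548 and DKOTu3 in 2 each and DKO79.9 in 1.

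In DKO170.2 *Syk* was at 20.2 CPM, far below the other Syk-positive lines. *Ace*, at 8.36 CPM, and *Tnfrsf19*, at 5.36 CPM, were also far below them, and *Jup*, at 0.8935 CPM, was far above. All 4 values lie on the side of the Syk-negative lines. The *Syk* value chose the line as a member, and each of the other 3 genes was also fitted without this line. The adjusted p was then 0.00108 for *Ace*, 0.00237 for *Tnfrsf19* and 0.0243 for *Jup*, so all 3 passed limma, against *Ace* alone of the 3 with the line. These genes were flagged because this line lay toward the Syk-negative lines. Leaving it out was thus bound to widen the difference and narrow the spread, and the passes add no support.

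In DKO548 *Prkcd*, at 66.4 CPM, was above the other 4 Syk-positive lines, which lay within 62.0 to 62.4 CPM, and *Sh3bp2*, at 5.06 CPM, was below them. In DKOTu3 *Col1a2* was at 0 CPM, where the other Syk-positive lines had 195 to 315 CPM, and *Ror2* was at 10.6 CPM, where they had 0. DKO79.9 had 4847970 reads on the listed genes, far fewer than the other 7 DKO lines. The causes of these values were not tested.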

How the results depend on the processing

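Of 1364 recomputed log2 fold changes of the 65 named genes, 1234 kept their direction and side of the threshold, 71 newly passed it, 12 no longer passed it and 47 turned direction, in 8 genes of which none passed limma. The number of genes that differ between Syk-positive and Syk-negative DKO lines was 2, and 1 with a pseudocount of 2, with all 15 lines, at 0.01 and by edgeR's quasi-likelihood test. It was 46 with array weights (32 higher and 14 lower), 127 by the likelihood ratio test and 244 by DESeq2, and 1 to 30 with a line left out. For genes whose values do not overlap between Syk-positive and Syk-negative DKO lines the range with a line left out was 891 to 1691. It was 891 to 1040 without DKO102.4, DKO548, DKO713 or DKOTu3 and 1691 without DKO170.2, all with 4 against 3 lines, and 1270 to 1572 with a Syk-negative line left out. In the fit of all 15 lines the 1 gene called was *Klf6*. The cause of the other changes was not tested.

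The turned values of the 8 genes follow. The log2 fold change of Cdkn1a was 0.052 with TMM, 0.022 with upper-quartile and 0.041 with median-of-ratios factors, 0.094 by quasi-likelihood, 0.095 by likelihood ratio and 0.080 by DESeq2, and -0.25 to 0.36 with a line left out. In the same order the log2 fold change of Cks2 was 0.042, 0.012, 0.031, 0.084, 0.085 and 0.071 (-0.16 to 0.093), and the log2 fold change of Secisbp2 was 0.049, 0.018, 0.037, 0.056, 0.055 and 0.042, with 0.034 under array weights (-0.061 to 0.045). By quasi-likelihood, likelihood ratio and DESeq2 the log2 fold change of Cd4 was -0.28, -0.27 and -0.29 (-0.50 to 1.86), and the log2 fold change of Ptcra was -0.037, -0.032 and -0.043, with -0.56 under array weights (-0.64 to 0.72). The log2 fold change of Sptlc1 was -0.0051 under array weights (-0.023 to 0.064). With a line left out, the log2 fold change of Lef1 was -0.31 to 0.083 and the log2 fold change of Ror2 -0.071 to 0.81.

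With 3 Syk-negative lines, 1 of them with 4847970 reads, values under 0.618 CPM are not told apart from 0 in DKO79.9. No paired analysis was possible because the groups come from a measured split of single lines, which share no replicate numbers.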
